A study of Homo sapiens with 2 samples.

Results

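The bile acid circuit of FXR and SHP was followed through 10 genes in Hep3B, an established line from a human hepatocellular carcinoma. The genes were taken by symbol from the 43424 symbols of the deposited count files, and all 10 were found there. They were the nuclear receptors NR1H4 (FXR), NR0B2 (SHP) and NR5A2 (LRH-1), the hormone FGF19 and its receptor FGFR4, the enzymes CYP7A1, CYP8B1 and CYP27A1, and the transporter subunits SLC51A and SLC51B. The series asked whether an extract of Glehnia littoralis (GLE) has a function in Hep3B cells. It holds 1 control library, from cells with the solvent dimethyl sulfoxide (DMSO), and 1 library of cells given GLE. Both groups are labelled wild type and share the same line, medium and library kit, the Lexogen QuantSeq kit, in which reads come from the 3′ ends of messages. The labels describe doses for a viability assay, with the dose and time for sequencing not given in the sources used here.

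In hepatocytes, bile acids bind FXR, which pairs with RXR and raises the gene of SHP. SHP has no DNA-binding domain of its own and holds back LRH-1 and HNF4A, the factors that drive CYP7A1 and CYP8B1, so that bile acids limit their own synthesis. In the ileum FXR raises FGF19, which reaches the liver and acts through FGFR4 and its co-receptor beta-Klotho (KLB) to the same end. FXR also raises SLC51A and SLC51B, the subunits of the transporter that lets bile acids out of the cell at its basolateral side.

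The control library held 5618328 counts and the GLE library 3636351. Levels are given as CPM, counts per 1000000 of the effective library size, and the floor, 3 counts, was worth 0.519 CPM for the control and 0.848 CPM for GLE. The ratio is the GLE level over the control level, with an exact Clopper-Pearson 95% interval. Intervals cover counting error only, and reads with no molecular identifier need not be independent molecules. With 1 library per group there is no replicate and no test between conditions, so each difference describes these 2 libraries, and differences between cultures cannot be told apart from an effect of GLE. In bulk RNA, fewer cells that express a gene and less of its RNA per cell cannot be told apart either. Mitochondrial ribosomal RNA took 8.52% of control and 13.2% of GLE counts, and its part in the results was not tested.

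A minimum of 30 counts over both libraries was passed by 5 of the 10 members, and these are called measured. All 5 had a lower level in the GLE library. NR0B2 and NR5A2 were at least 2-fold lower, where 10.5% of the 11068 measured genes were, and 0 members were at least 2-fold higher, where 9.54% of genes were. The counting interval lay below 1 for the 5 measured members, against 30.1% of measured genes, and above 1 for 0, against 27.7%. The median log2 ratio of the 5 was -0.81, and that of all measured genes was -0.04. The members were chosen with these results known, so the counts are a description. The 10 members together took 1451 control counts, or 258 per 1000000 of the library's unscaled total (245 to 272). In the GLE library they took 434 counts, or 119 per 1000000 of the unscaled total (108 to 131). By effective library size these sums were 251 CPM and 123 CPM. Each library had a count for 8 of the 10.

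**Figure D1:**
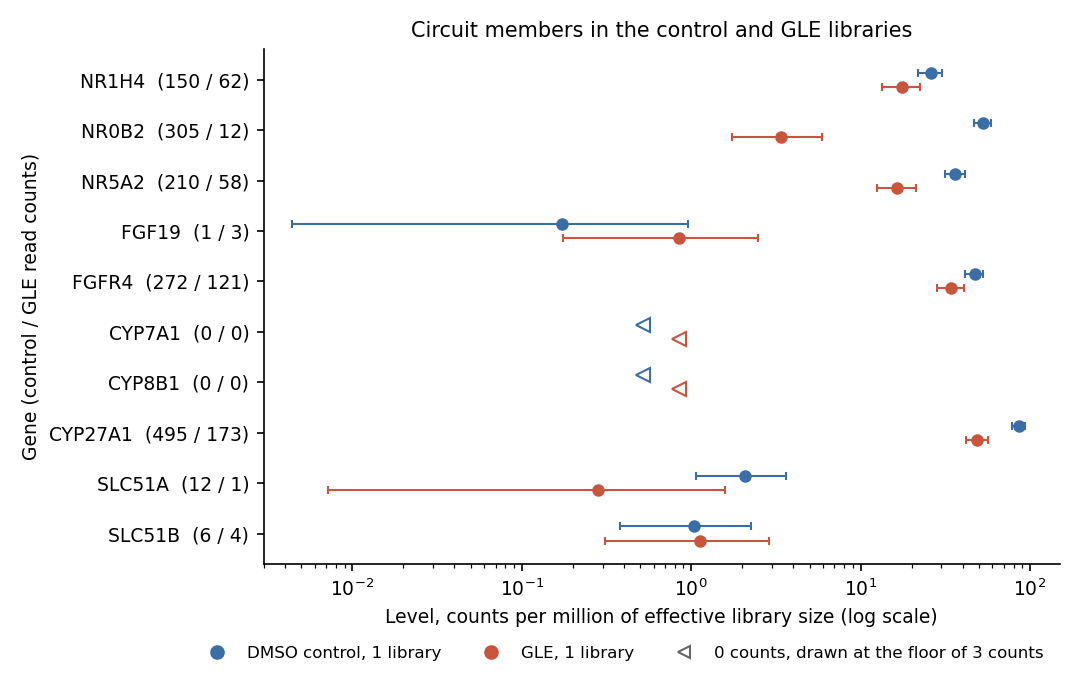
Level of each of the 10 circuit genes in the DMSO control library (blue) and the GLE library (red), in CPM on a log scale. Points are single libraries, bars are exact Poisson 95% counting intervals, and open triangles mark 0 counts at the floor of 3 counts. NR0B2 goes from 52.8 to 3.39 CPM, and the 4 other measured genes lie to the left of their control by less.

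NR0B2 stood apart from the other members. The gene lies on chromosome 1 (26911489 to 26913975, minus strand, GRCh38) and encodes SHP, the receptor-like repressor that FXR induces. It had 305 counts in the control, a level of 52.8 CPM (47.0 to 59.1), and 12 counts in the GLE library, a level of 3.39 CPM (1.75 to 5.93). The level was thus far above the floor with DMSO and nearer to it with GLE. The ratio was 0.0643 (0.0329 to 0.114), or 15.6-fold lower (8.78 to 30.4). The whole interval lay beyond 2-fold, as it did for 1 of the 5 measured members, against 2.86% of measured genes in that direction; upward, 0 members and 3.82% of genes did so. By log2 ratio NR0B2 was number 15 from the lowest of the 11068 measured genes. By count it was number 3185 of all symbols with DMSO and number 10734 with GLE.

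NR0B2 lies within the span of NUDC, which encodes a nuclear migration protein, is read from the opposite strand and shares 0 exonic bases with it in GENCODE release 29. NUDC had 532 control and 317 GLE counts and a ratio of 0.974 (0.845 to 1.12). Within 200 kb of NR0B2, by their nearest ends, 11 other genes were measured, a window chosen after the values of NR0B2 were known. Their ratios ran from 0.545 to 2.82 with a median of 1.03, and 0 of them were at least 2-fold lower. GPN2 and SFN were the 2 that were at least 2-fold higher, with 65 control and 92 GLE counts for GPN2 and 11 and 19 for SFN. The low ratio of NR0B2 was thus not shared by the measured genes beside it.

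**Figure D2:**
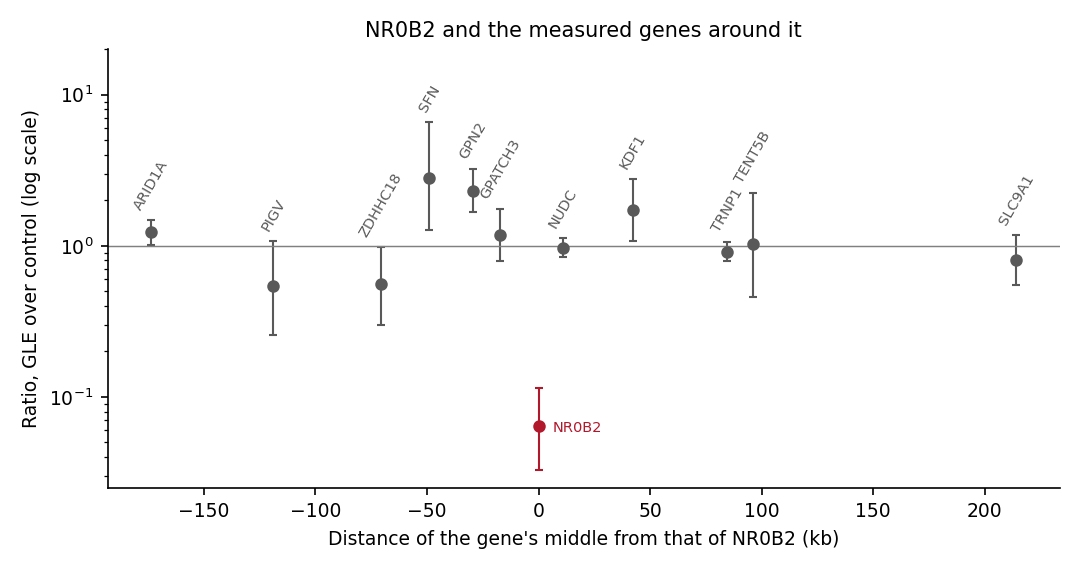
Ratio of GLE over control, on a log scale, of NR0B2 (red) and the 11 other measured genes within 200 kb of it (grey), against the distance of each gene's middle from that of NR0B2. Points are ratios of 2 single libraries with Clopper-Pearson 95% counting intervals. NR0B2 sits at 0.0643, and the lowest neighbour is at 0.545.

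NR1H4 encodes FXR, the bile acid receptor itself (chromosome 12, 100473866 to 100564414, plus strand). It had 150 control counts, 26.0 CPM (22.0 to 30.5), and 62 GLE counts, 17.5 CPM (13.4 to 22.5). Its ratio was 0.675 (0.494 to 0.914), so the receptor was lower by much less than its target NR0B2. A comparison within each library does not depend on the scaling. For each NR1H4 count there were 2.03 NR0B2 counts with DMSO and 0.194 with GLE, a change by a factor of 0.0952 (exact conditional 95% interval 0.0455 to 0.186).

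NR5A2 encodes LRH-1, the receptor that SHP holds back (chromosome 1, 200027710 to 200177415, plus strand). It had 210 control counts, 36.3 CPM (31.6 to 41.6), and 58 GLE counts, 16.4 CPM (12.5 to 21.2). The ratio was 0.451 (0.331 to 0.606), or 2.22-fold lower (1.65 to 3.02), so the interval included 2-fold. NR5A2 was the measured member just inside the 2-fold limit, and CYP27A1, at 1.75-fold lower, the one just outside.

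**Figure D3:**
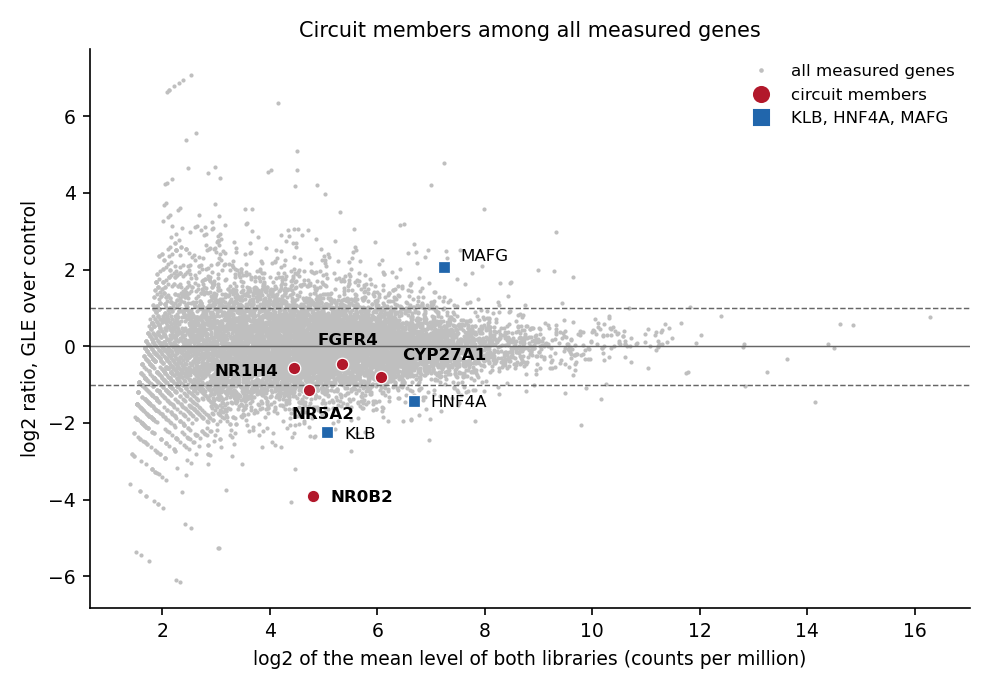
log2 ratio of GLE over control against the log2 of the mean level in both libraries for the 11068 measured genes (grey), with the 5 measured circuit members (red circles) and KLB, HNF4A and MAFG (blue squares). Dashed lines mark 2-fold. NR0B2, at -3.90, is far below the other members, which lie between -1.14 and -0.46.

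The sequences before the start sites of the members were read from RefSeq (GRCh38.p14), where 8 windows matched 6 members: NR5A2 and FGFR4 with 2 starts each, and NR1H4, CYP27A1, SLC51A and SLC51B. The starts of NR0B2, FGF19, CYP7A1 and CYP8B1 were not analysed here. In the 250 bases before each start, 4 motifs were searched on both strands. They were the FXR element IR-1 (AGGTCANTGACCT) and the element DR-1 of HNF4A (AGGTCANAGGTCA), each with up to 2 mismatches, and the exact letters CAAGGTCA of NR5A2 and TGTTTAC of FOXA factors. CAAGGTCA holds the half-site AGGTCA that IR-1 and DR-1 also use. The 2 windows with a match are printed 5′ to 3′ on the plus strand, with the matched letters in capitals, since 1 belongs to a receptor with a lower level and 1 to an FXR target. The NR5A2 window (chr1:200042341-200042590) stands before the second of 2 starts. The SLC51B window is chr15:65045137-65045386.
NR5A2: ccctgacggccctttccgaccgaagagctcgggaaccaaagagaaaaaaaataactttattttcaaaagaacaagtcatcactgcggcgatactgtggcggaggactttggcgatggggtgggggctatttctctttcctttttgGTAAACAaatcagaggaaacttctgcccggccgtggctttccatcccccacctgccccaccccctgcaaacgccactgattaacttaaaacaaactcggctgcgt
SLC51B: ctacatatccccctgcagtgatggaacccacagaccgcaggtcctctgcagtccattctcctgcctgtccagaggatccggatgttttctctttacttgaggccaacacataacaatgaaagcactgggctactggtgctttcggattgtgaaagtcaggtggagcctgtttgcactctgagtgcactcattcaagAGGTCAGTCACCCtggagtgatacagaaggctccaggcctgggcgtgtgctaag

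The capitals in NR5A2 are the FOXA letters read on the minus strand, 105 to 99 bases before the start, present in 2.98% of the 35116 windows of that length in the table. The capitals in SLC51B match IR-1 with 2 mismatches, 54 to 42 bases before the start, as in 0.945% of windows. The NR5A2 letters were found in 0 of the 8 member windows and 1.14% of all, and DR-1 in 0 of 8 and 2.57% of all. A match describes letters in a window and is not a measured binding site.

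The hormone arm was measured at the receptor only. FGFR4, the FGF receptor of hepatocytes (chromosome 5, 177086915 to 177098144, plus strand), had 272 control counts, 47.1 CPM (41.6 to 53.0), and 121 GLE counts, 34.2 CPM (28.4 to 40.9). Its ratio was 0.727 (0.582 to 0.904), the closest to 1 among the 5 measured members. FGF19 (chromosome 11, 69698238 to 69704022, minus strand) had 1 control count and 3 GLE counts. The ratio of 4.90 had an interval of 0.394 to 257, so no difference was detectable at this depth.

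KLB encodes beta-Klotho, which FGFR4 needs to bind FGF19. It had 322 control counts, 55.7 CPM, and 41 GLE counts, 11.6 CPM, and was 4.81-fold lower (3.47 to 6.83). For each FGFR4 count there were 1.18 KLB counts with DMSO and 0.339 with GLE, a change by a factor of 0.286 (0.189 to 0.428). The co-receptor was thus lower by more than the receptor it works with. Around them, the list of 27 genes of the FGF receptor arm had 25 measured, of which 1 (KLB) was at least 2-fold lower and 2 at least 2-fold higher, with intervals below 1 for 7 and above 1 for 6. Its median log2 ratio was -0.07, close to that of all measured genes. At 2-fold, 10.5% of all measured genes were lower and 9.54% higher, and by interval 30.1% and 27.7%. The 2 higher genes were ETV5, an ETS factor that FGF signalling through ERK induces, at a ratio of 5.47 (4.27 to 7.06), and FRS2, the docking protein of FGF receptors, at 3.12 (2.50 to 3.91). Other measured genes of the list that answer to or restrain ERK had intervals that lay below 1 or included 1. The ERK phosphatase DUSP6 had a ratio of 0.576 (0.445 to 0.739) and SPRED2, an inhibitor of the ERK cascade, 0.643 (0.427 to 0.95). Intervals included 1 for ETV4, a close relative of ETV5, at 0.879 (0.610 to 1.25), SPRY1 at 0.693 (0.464 to 1.02), SPRED1 at 0.851 (0.559 to 1.28) and SPRY2 at 1.32 (0.806 to 2.13). SPRY4, with 10 control and 19 GLE counts, missed the minimum and had a ratio of 3.10 (1.37 to 7.48). DUSP6, ETV4 and the SPRY and SPRED genes were named after their values were seen. FGFR3, another FGF receptor, was lower, at 0.577 (0.502 to 0.660).

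Of the 3 enzymes, the cholesterol 27-hydroxylase CYP27A1, which opens the alternative pathway of bile acid synthesis in mitochondria, was the one with counts (chromosome 2, 218782147 to 218815293, plus strand). It had 495 control counts, 85.7 CPM (78.3 to 93.6), and 173 GLE counts, 48.9 CPM (41.9 to 56.8). The ratio was 0.571 (0.478 to 0.680), or 1.75-fold lower (1.47 to 2.09). CYP7A1, the rate-limiting enzyme of the classical pathway, and CYP8B1, the sterol 12-alpha-hydroxylase that sets the share of cholic acid, had 0 counts in both libraries. By the floor of 3 counts, 0 counts allow a level of up to 0.519 CPM with DMSO and 0.848 CPM with GLE, and by the upper end of the exact Poisson 95% interval up to 0.638 CPM and 1.04 CPM, so no ratio can be given. The 2 enzymes on which SHP is known to act could thus not be read in either library.

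Among 18 other enzymes of bile acid synthesis and conjugation, 10 were measured. BAAT, which joins bile acids to glycine or taurine, had 41 control and 12 GLE counts and was the 1 gene at least 2-fold lower, at 2.09-fold (1.08 to 4.37). 0 of the 10 were at least 2-fold higher. At 2-fold, 10.5% of all measured genes were lower and 9.54% higher. Of the 10 intervals, 4 were entirely under 1 and 0 entirely over 1, against 30.1% and 27.7% over all measured genes. The median log2 ratio was -0.25. The other 3 with an interval below 1 were ABCD3, a peroxisomal transporter of bile acid precursors, at 0.661 (0.571 to 0.763), SCP2, a peroxisomal thiolase and sterol carrier, at 0.715 (0.615 to 0.830), and HSD3B7, a dehydrogenase of the sterol ring, at 0.752 (0.654 to 0.863).

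Both subunits of the basolateral bile acid transporter were near the floor. SLC51A (chromosome 3, 196216534 to 196233427, plus strand) had 12 control counts and 1 GLE count. Its ratio was 0.136 (0.00319 to 0.920), a range that reaches close to 1, and was 0.35 with 2 added to each count. SLC51A shares 389 exonic bases with PCYT1A on the opposite strand, which had 390 control and 191 GLE counts, and since the strand setting of the counting is not given, their reads cannot be told apart there. SLC51B (chromosome 15, 65045387 to 65053397, plus strand), whose IR-1 match is printed above, had 6 control and 4 GLE counts and a ratio of 1.09 (0.226 to 4.59). No difference was detectable for SLC51B at this depth. SLC51B shares 60 exonic bases with RASL12 on the opposite strand, which had 1 control and 1 GLE count. The same limit of the unknown strand setting holds there.

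Other bile acid and biliary lipid transporters were lower more often than higher. Of 19 genes, 12 were measured, 4 of them at least 2-fold lower and 0 at least 2-fold higher, with intervals below 1 for 8 and above 1 for 1. Among all measured genes, 10.5% were at least 2-fold lower and 9.54% higher, and by interval 30.1% and 27.7%. The median log2 ratio of the transporters was -0.84, against -0.04 over all measured genes. ABCB4, the canalicular phospholipid floppase, was 3.52-fold lower (1.89 to 7.14), SLCO1B3, an uptake carrier of hepatocytes, 2.93-fold (1.63 to 5.64), and ABCC2, a canalicular pump of conjugates, 2.90-fold (2.58 to 3.28). ABCC3, a basolateral pump, was 1.93-fold lower (1.58 to 2.38). ABCB11, the bile salt export pump and a classical FXR target, had 0 control counts and 1 GLE count. SLC10A1, the sodium-dependent bile acid carrier of hepatocytes, had 0 in both, so these 2 main carriers could not be compared.

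A list of 24 genes that FXR is known to induce had 18 measured, and 9 of these were at least 2-fold lower and 1 at least 2-fold higher. Of their intervals, 13 were entirely under 1 and 2 entirely over 1, with a median log2 ratio of -0.84. Over all measured genes, 10.5% were at least 2-fold lower and 9.54% higher, 30.1% and 27.7% by interval, with a median of -0.04. Besides ABCC2, the named genes were KNG1, a kininogen, at 3.07-fold lower (2.34 to 4.09), and FGA, a fibrinogen chain, at 2.72-fold lower (2.23 to 3.33). Many of these genes are also hepatocyte genes at large. The 12 hepatocyte markers had 3 genes at least 2-fold lower and 0 higher, with intervals below 1 for 9 and above 1 for 1 and a median log2 ratio of -0.48. Their summed level was 16435 CPM with DMSO and 13243 CPM with GLE, with none of the 12 at 0. The most abundant of them, the apolipoprotein APOA2, had 41784 control and 25268 GLE counts and a ratio of 0.988 (0.973 to 1.00). APOA2 alone held 7232 CPM of the sum with DMSO and 7146 CPM with GLE. Next in abundance, ALB had a ratio of 0.626 (0.611 to 0.641) and APOB 0.383 (0.365 to 0.401). SERPINA1, at 1.45 (1.31 to 1.62), was the 1 marker with an interval above 1. The part of the difference in hepatocyte markers in the lower levels of the circuit was not tested. The list of FXR-induced genes was put together with the low values of several of its genes known, and is no independent evidence.

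The 1 FXR-induced gene that was at least 2-fold higher was MAFG, a small MAF protein known to repress genes of bile acid synthesis. It had 337 control counts, 58.3 CPM, and 867 GLE counts, 245 CPM, a ratio of 4.20 (3.70 to 4.78). For each NR0B2 count there were 1.10 MAFG counts with DMSO and 72.2 with GLE. The 2 repressors downstream of FXR thus lay on opposite sides. A higher level was not particular to MAFG among small MAF genes. MAFF had a ratio of 1.998 (1.62 to 2.47) and MAFK 1.66 (1.46 to 1.88).

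**Figure D4:**
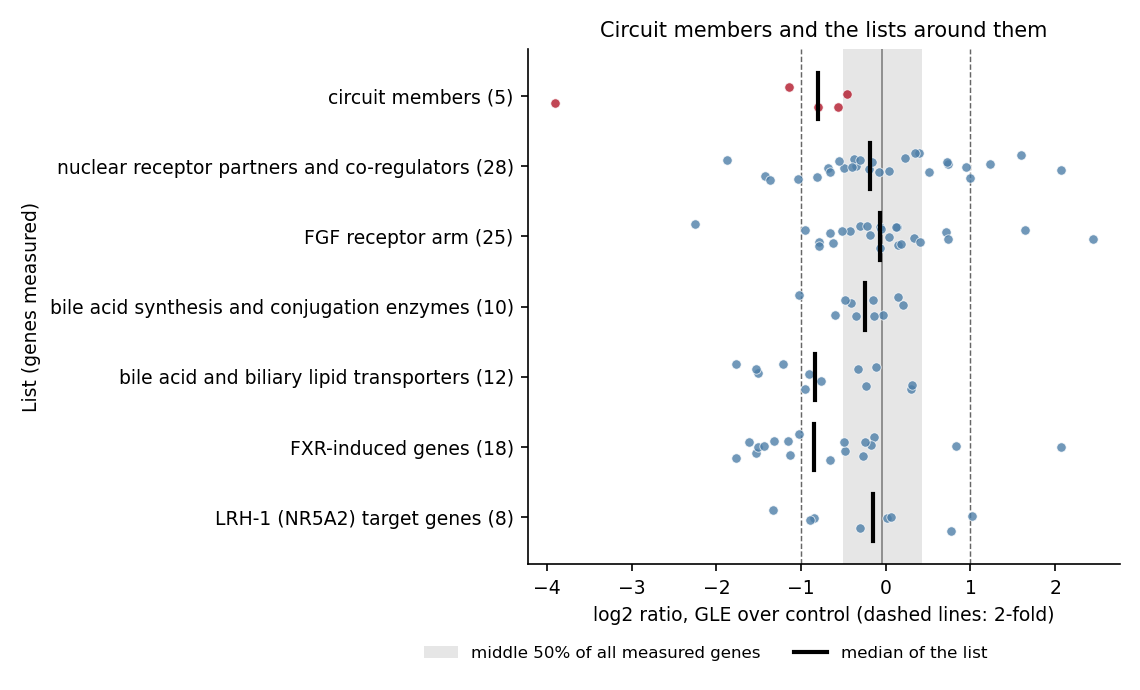
log2 ratio of GLE over control of the measured genes in each list, with 1 point per gene, black bars for medians, grey for the middle 50% of all measured genes and dashed lines at 2-fold. The circuit members, the transporters and the FXR-induced genes have medians of -0.81, -0.84 and -0.84, and the FGF receptor arm has a median of -0.07. Some genes are in more than 1 list.

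Partners and co-regulators of the receptors lay on both sides. Of 32 genes, 28 were measured, 4 at least 2-fold lower and 3 at least 2-fold higher, with intervals below 1 for 12 and above 1 for 9 and a median log2 ratio of -0.18. The shares of all measured genes were 10.5% lower and 9.54% higher at 2-fold, and 30.1% and 27.7% by interval. HNF4A, which drives CYP7A1 and NR0B2 among many liver genes, had 866 control and 197 GLE counts and was 2.69-fold lower (2.30 to 3.16). For each NR0B2 count there were 2.84 HNF4A counts with DMSO and 16.4 with GLE, so NR0B2 was lower by more than HNF4A. RXRA, the partner of FXR, was 1.60-fold lower (1.37 to 1.88), and its count per NR1H4 count, 3.89 for the control and 3.60 for GLE, differed by less than counting error (factor 0.925, 0.656 to 1.32). SIRT1, a deacetylase that acts on FXR, was higher, at a ratio of 3.03 (2.24 to 4.12).

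Known targets of LRH-1 showed no common side. Of 20 genes, 8 were measured, 1 at least 2-fold lower and 1 at least 2-fold higher, with intervals below 1 for 4 and above 1 for 1 and a median log2 ratio of -0.14. The count of higher genes was 0 when the libraries were scaled by total counts, by upper quartiles or without the most abundant genes. Cyclin E1 (CCNE1) was 2.54-fold lower (1.87 to 3.53), cyclin D1 (CCND1) 1.86-fold lower (1.51 to 2.30) and APOM, an apolipoprotein, 1.81-fold lower (1.28 to 2.60). NR5A2 itself was 2.22-fold lower, and the median over all measured genes was -0.04. Shares of all measured genes were 10.5% lower and 9.54% higher at 2-fold, and 30.1% and 27.7% by interval.

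Among themselves, the 5 measured members form 10 pairs, which share genes and libraries. The exact interval of the change in the ratio of their counts excluded 1 for 5 pairs, namely the 4 that hold NR0B2 and the pair of NR5A2 and FGFR4. For that pair, there were 0.772 NR5A2 counts for each FGFR4 count with DMSO and 0.479 with GLE, a factor of 0.621 (0.424 to 0.903). For the other 5 pairs among NR1H4, NR5A2, FGFR4 and CYP27A1, the difference was not detectable at this depth. Over 2 libraries a pattern is a single ratio. The 3 genes with at least 100 counts whose log2 ratio was nearest to that of NR0B2, of 8244 compared, were TCIM at 0.0660 (0.0176 to 0.174), SGK1 at 0.106 (0.0584 to 0.179) and DDX28 at 0.113 (0.0475 to 0.230).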

How the data were processed

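Messenger RNA of 1 control and 1 GLE library of Hep3B cells was compared. Per the labels' protocols, 500 ng of total RNA entered each library. The deposited files hold whole-number read counts per gene symbol without normalization. The submitters' processing notes name fastp, STAR, HTSeq and GRCh38, with versions, annotation and strand option not given in the sources used here.

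Counts were scaled by effective library sizes (TMM, edgeR 4.0.16 under R 4.3.3, factors 1.03 and 0.972). Genes with at least 30 summed counts were kept, log2 ratios had 0.5 added to each count, and no test was made. Levels carry exact Poisson intervals. On simulated Poisson counts, with the library scaling taken as known, the computation recovered the ratios put in. Neither the scaling nor spread beyond counting error was part of that simulation. Named genes were all members, KLB, RXRA, HNF4A, ABCB11 and SLC10A1, the 3 genes nearest to NR0B2, and up to 4 genes per list by the interval bound nearest to 1; a few of these are left out here. Members and lists were chosen with earlier results of these data known. Of the 43424 symbols, 42739 matched RefSeq (GRCh38.p14). DESeq2 1.42.0 size factors and 9 other settings were tried. Python 3.11.15, SciPy 1.17.1 and matplotlib 3.10.9 were used.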

Additional observations from a re-analysis of the deposited data

How the results depend on the processing

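The ratio of NR0B2 stayed between 0.0608 and 0.0745 under the 10 other settings, and the 66 values of the 7 other members with counts stayed within their counting intervals. Those of SLC51A and FGF19 are wide, and 2 added to each count moved SLC51A from 0.136 to 0.35 and FGF19 from 4.90 to 2.72. The minimum of counts and the whole-interval rule do not enter a ratio. Under those settings the ratios equal the main values by construction and say nothing about stability. The 2 members at least 2-fold lower were 3 with a minimum of 10 counts or none, where SLC51A enters, and 1, NR0B2, when the whole interval had to lie beyond 2-fold. Without a minimum 1 member, FGF19, was at least 2-fold higher. The number of genes at least 2-fold lower and higher was 1840 and 1655 with a minimum of 10 counts, 579 and 613 with a minimum of 100, 3989 and 4224 with none, and 316 and 423 by the whole interval, as more or fewer genes can pass. When scaled by total counts, 6 in place of 4 bile acid transporters and 2 in place of 1 gene of the FGF receptor arm were at least 2-fold lower. No paired analysis was possible because each group holds 1 library. Depth limits what can be said of FGF19, SLC51A and SLC51B, which had 13 counts or fewer, and of CYP7A1 and CYP8B1, which had 0.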

Other observations

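Few markers of other cell types were measured. For comparison, 10.5% of all measured genes were at least 2-fold lower and 9.54% higher, and by interval 30.1% and 27.7%. Of 7 cholangiocyte markers, 4 were measured, 1 of them at least 2-fold lower and 0 at least 2-fold higher, with intervals below 1 for 2 and above 1 for 0 and a summed level of 599 CPM with DMSO and 447 CPM with GLE. CFTR was at 0 in both. Of 8 markers of ileal enterocytes, where FGF19 and the SLC51 transporter are best known, 4 were measured, 1 at least 2-fold lower and 1 at least 2-fold higher, and the summed level was 280 CPM with DMSO and 193 CPM with GLE. SLC10A2, the ileal bile acid carrier, was at 0 in both, and FABP6, the ileal bile acid binding protein, had 7 control and 8 GLE counts. The gene that was lower was CDX2, an intestinal homeodomain factor, with 353 control and 48 GLE counts and a ratio of 0.222 (0.161 to 0.301). The gene that was higher was APOA4, an apolipoprotein, with 105 control and 136 GLE counts and a ratio of 2.12 (1.63 to 2.76). CDX2 and APOA4 were named after their values were seen. Of 7 stellate cell or fibroblast markers, COL1A1 was measured, with 4 control and 29 GLE counts, and the list's summed level was 5.19 CPM with DMSO and 21.5 CPM with GLE.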
